A study of Mus musculus with 12 samples.

Results

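Peaks of acetylated histone H4 (H4ac) were examined over the replication-dependent histone gene cluster of mouse chromosome 13, formerly named Hist1. The cluster was taken as 2 windows of the mm9 build, chr13:21750000-22200000 (window 1, 450 kb) and chr13:23550000-24050000 (window 2, 500 kb). Every deposited peak that overlapped a window by at least 1 bp was a member. The windows were set by position and not by peak values, though with earlier results of these data known. They held 16 peaks out of 85369 in the 6 peak lists, against 3547 on the rest of chromosome 13. The lists come from C2C12, an established mouse myoblast line, transduced with lentivirus carrying either an MLX-DN or an MLX-WT construct, with 3 H4ac libraries for each. MLX is a DNA-binding partner of MondoA and ChREBP, transcription factors that respond to glucose. The labels do not spell out DN, and one field calls these samples MLX down. The culture description also mentions empty-vector and non-targeting shRNA controls, but the H4ac libraries are of the MLX-DN and MLX-WT cells. Peak names in both groups carry a tag for glucose being present. Whether the replicates were grown as separate cultures, and whether a transduced population was a clone, is not stated. The p-values therefore reflect the spread among these libraries alone, which may be technical. The myoblast identity of the cells was not checked, since marker genes could not be placed on mm9 coordinates here.

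Replication-dependent histone genes supply the bulk of new histone protein during S phase, when DNA is copied. Their transcripts end in a stem-loop in place of a poly(A) tail, and their transcription is gathered in nuclear histone locus bodies. Linker histone H1 binds DNA between nucleosomes, and H2A, H2B, H3 and H4 form the nucleosome core. Several genes of the cluster encode histone H4, the protein whose acetylated form the antibody recognises. Acetylation of the H4 tail is typical of active promoters and enhancers.

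The RefSeq annotation of the later GRCm38.p6 build was used only for names and gene order. By their former Hist1h names, with symbols marked -ps left out, it lists 55 histone genes in this cluster, 1 of them annotated as a pseudogene. They form 2 sub-clusters of 24 and 31 genes parted by 75 Vmn1r genes, which encode pheromone receptors of the vomeronasal organ. The first sub-cluster runs from H2bc13 to H2bc11 and holds 1 H1, 8 H2A, 8 H2B, 2 H3 and 5 H4 genes. The second runs from H4c8 to H2ac1 and holds 5 H1, 6 H2A, 7 H2B, 7 H3 and 6 H4 genes. Genes such as Hfe, an iron regulator, and the Slc17a1 to Slc17a4 group of anion transporters lie among the histone genes of the second sub-cluster. Since no mm9 annotation was used here, no peak below is assigned to a gene.

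How far single reads can tell the copies apart was read from the RefSeq promoters, each running from 250 bases before to 50 after the start. Of 55 genes, 51 had an entry, with 52 promoters in all. A 50-base word, the length of the sequenced reads, recurred at another position of the promoter table in 8 of the 52 (15.4%), against 8.13% of all 32817 promoters. All 8 were in the first sub-cluster, where they made up 34.8% of 23, and none of the 29 promoters of the second sub-cluster held such a word. The H2B genes H2bc23 and H4bc24 shared all 300 bases, and H4c17 and H4c18 shared a run of 285. The rest of the genome was not searched, and the sources used here do not give the handling of reads with several matches, whose part in the peak numbers was not tested. The 110 bases before the start are shown for the near-identical H4 pair, for H4c1 as an H4 gene with no shared word, and for the linker histone gene H1f1. Capitals mark CCAAT or TATAAA on either strand (GRCm38.p6, chromosome 13).
H4c17 (plus strand): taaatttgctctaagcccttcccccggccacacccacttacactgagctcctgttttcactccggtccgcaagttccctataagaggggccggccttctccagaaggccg
H4c18 (minus strand): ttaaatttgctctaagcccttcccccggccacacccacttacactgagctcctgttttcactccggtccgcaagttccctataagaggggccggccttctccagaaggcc
H4c1 (minus strand): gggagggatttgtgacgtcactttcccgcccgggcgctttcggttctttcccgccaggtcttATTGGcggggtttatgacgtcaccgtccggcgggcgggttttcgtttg
H1f1 (plus strand): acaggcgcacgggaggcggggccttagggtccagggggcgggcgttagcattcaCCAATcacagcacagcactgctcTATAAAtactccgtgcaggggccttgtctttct

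The first 2 sequences share 109 of their 110 bases in 1 run, offset by a single base, whereas the longest run shared by the H4c1 and H4c17 promoters is 7 bases. The sequence CCAAT, on either strand, was in all 6 H1, 13 H2A, 15 H2B and 7 H3 promoters with an entry and in 3 of 11 H4 promoters, against 37.4% of all promoters. TATAAA was in 59.6% of the histone promoters and 13.6% of all. The octamer ATTTGCAT was in 6 of 15 H2B and 5 of 13 H2A promoters and in none of the H1, H3 and H4 promoters, against 1.74% of all. Divergent H2A and H2B genes share much of their promoter, so their counts are not independent. These matches describe the letters only.

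The histone windows carried few H4ac peaks in either group. MLX-DN replicates 1, 2 and 3 listed 3, 4 and 5 peaks there. MLX-WT replicates 1, 2 and 3 listed 0, 4 and 0. The means were 4 ± 1 and 1.33 ± 2.31 peaks (SD, n = 3). The 4 peaks of MLX-WT replicate 2 equalled those of MLX-DN replicate 2 and exceeded those of MLX-DN replicate 1, so the groups overlapped. A count of 0 allows up to 3 peaks, or 3.16 per Mb, for counting error only.

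**Figure D1:**
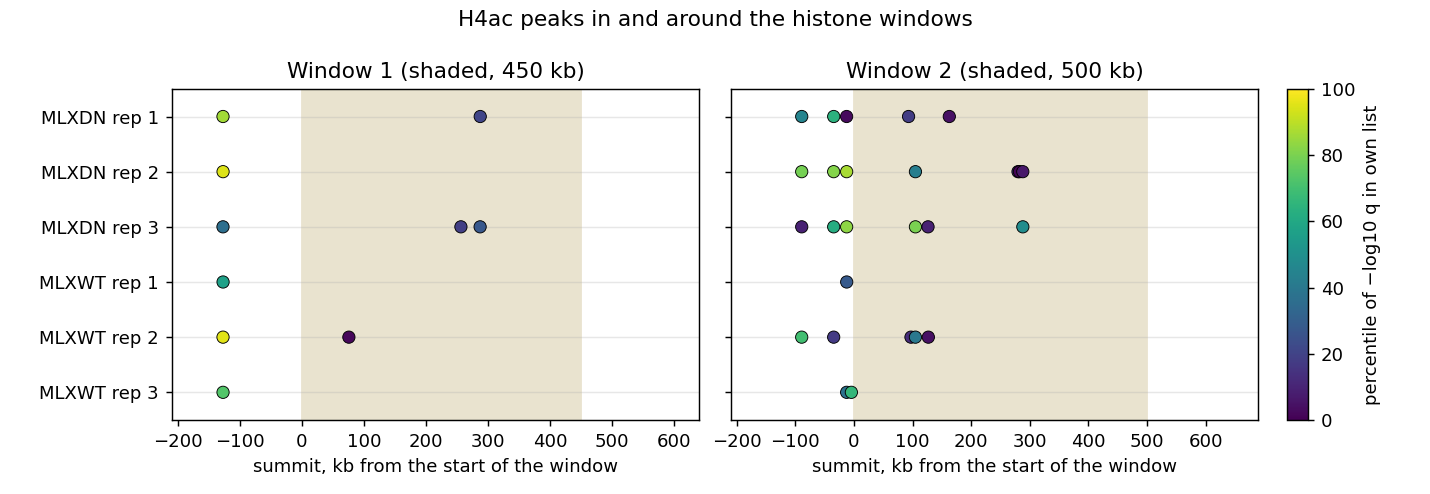
Position of each H4ac peak summit in kb from the start of window 1 (left) and window 2 (right), by library, with the window shaded and colour giving the percentile of the peak's −log10 q in its own list. Window 1 holds 4 peaks of 3 libraries, window 2 holds 12 peaks of 4 libraries, and the points left of the shading are peaks below each window, of low and high percentile.

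Peak number did not separate the 2 constructs. On the log2 scale, with 0.5 added since 2 libraries had no peak, the MLX-DN minus MLX-WT difference was 2.09 (exact permutation test, two-sided, p = 0.30, adjusted p = 0.40 over 3 tests). With 3 libraries against 3 this test cannot go below 0.10. The difference was 0.53 with lists of equal length, 0.77 with peaks of −log10 q of at least 5 and in window 1 alone, and 3.15 without MLX-WT replicate 2. Its size also depended on the number added, at 2.70 with 0.25 and 1.53 with 1. Covered length was 1053, 1135 and 1407 bp in the MLX-DN libraries and 0, 1148 and 0 bp in the MLX-WT libraries. Its log2 difference, with 125 bp added, was 2.28 (exact permutation p = 0.30, adjusted p = 0.40). It was 0.66 with lists of equal length and 3.40 without MLX-WT replicate 2. With 60 bp added it was 2.94, and with 250 bp 1.70. List length also differed between the groups. The MLX-DN libraries listed 652, 1008 and 720 peaks on the rest of chromosome 13 and the MLX-WT libraries 232, 567 and 368, with no overlap (log2 ratio of geometric means 1.10, exact permutation p = 0.10). Divided by those numbers, the window peaks differed by 0.99 on the log2 scale (exact permutation p = 0.40, adjusted p = 0.40), a difference that was 1.73 without MLX-WT replicate 2, 0.46 without MLX-WT replicate 3 and 0.27 with windows widened by 100 kb. It changed sign to −0.29 with peaks of −log10 q of at least 5 and to −0.32 in window 1 alone. With 0.25 added to the peak numbers this difference was 1.60, and with 1 added 0.43. The MLX-WT library with window peaks had the longest list of its group. Recovered ChIP depth was 3.30 to 3.90 reads per 250 bp over the 6 libraries, with 3.46, 3.84 and 3.30 in MLX-WT replicates 1, 2 and 3.

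Peaks were sparser and covered less sequence in the windows than on the average of the rest of chromosome 13. MLX-DN replicates 1, 2 and 3 had 3.16, 4.21 and 5.26 peaks per Mb in the windows and 5.63, 8.71 and 6.22 per Mb on the rest. MLX-WT replicate 2 had 4.21 and 4.90 per Mb, while replicates 1 and 3 had none in the windows and 2.004 and 3.18 per Mb on the rest. All 6 libraries were lower in the windows, by little in MLX-DN replicate 3 and MLX-WT replicate 2. At the density of the rest the 6 lists together would hold 29.1 peaks in the windows, against the 16 listed. The mean log2 ratio of densities was −1.03 ± 1.03 (SD, n = 6; exact sign-flip permutation test, two-sided, p = 0.031, adjusted p = 0.031 over 2 tests, the smallest value 6 libraries allow). This call depended on the number added: with 1 in place of 0.5 the ratio was −0.59 and the exact permutation p 0.125. It was also lost in window 2 alone, at −0.35 (exact permutation p = 0.4375), and where the windows were widened by 100 kb or narrowed by 50 kb.

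**Figure D2:**
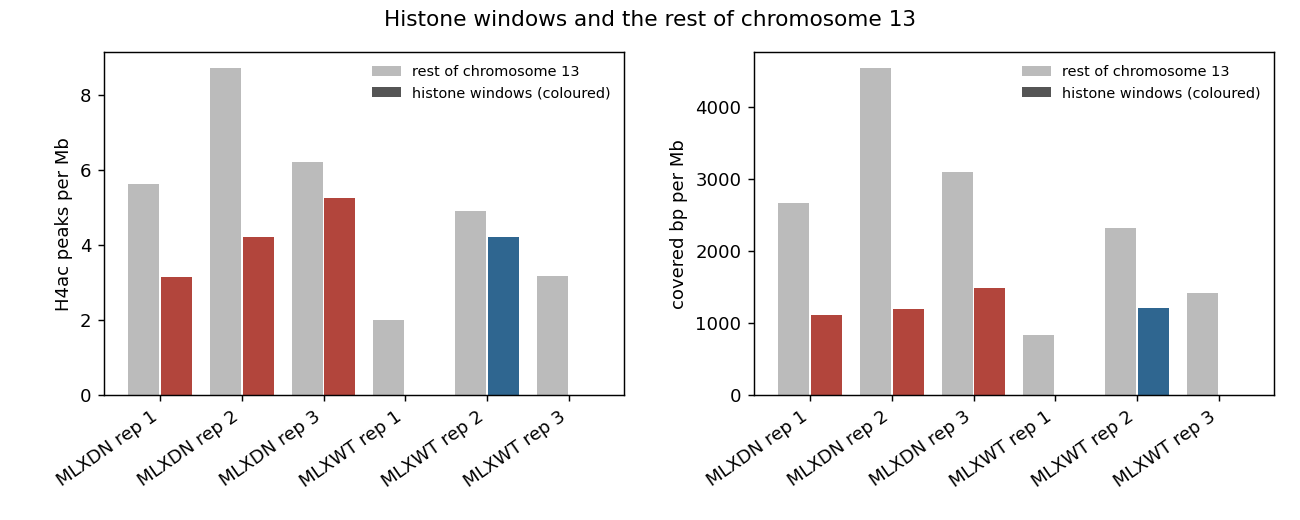
H4ac peaks per Mb (left) and base pairs covered by peaks per Mb (right) in each library, with grey bars for the rest of chromosome 13 and coloured bars for the histone windows. The coloured bars are below the grey ones in all 6 libraries, and MLXWT replicates 1 and 3 have no peak in the windows.

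Covered length gave the larger contrast. The windows had 1108, 1195 and 1481 covered bp per Mb in MLX-DN replicates 1, 2 and 3, and the rest of the chromosome 2665, 4535 and 3090. MLX-WT replicate 2 had 1208 against 2321 bp per Mb, and replicates 1 and 3 had 0 against 836 and 1421. The mean log2 ratio, with 125 bp added, was −1.79 ± 1.06 (SD, n = 6; exact sign-flip permutation p = 0.031, adjusted p = 0.031). The same p was found in each window alone and in all other settings that kept 6 libraries. The libraries share the same positions, so this test speaks of these windows in these libraries and not of histone genes elsewhere. The windows were chosen with earlier results of these data known, which limits the p-values for density and covered length.

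Single libraries could not show the lower density on their own. The windows make up 0.814% of the chromosome between its first and last listed peak. They held 0.458%, 0.395% and 0.690% of the chromosome 13 peaks in MLX-DN replicates 1, 2 and 3 and 0.701% in MLX-WT replicate 2. The exact 95% binomial intervals reached from 0.0946 to 1.33%, 0.108 to 1.01%, 0.224 to 1.602% and 0.191 to 1.78%. With 0 peaks, the exact intervals of MLX-WT replicates 1 and 3 reached from 0 up to 1.58% and 0.997%. Each of these ranges includes the share of length.

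The average of the chromosome is raised by a few peak-rich stretches. In 235 segments of 500 kb, the 6 lists together held a median of 7 peaks, with quartiles of 0 and 17 and a highest count of 171. No list had a peak in 66 segments (28.1%). Window 2 is one of these segments, and its 12 peaks exceeded the count of 143 others (60.9%). Window 1, slightly shorter, held 4 peaks, a count at or above that of 92 segments (39.1%). Thus window 2 stood below the mean density of the chromosome and above its median segment. All 6 libraries had a peak in 34.5% of the segments, which neither window achieved.

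**Figure D3:**
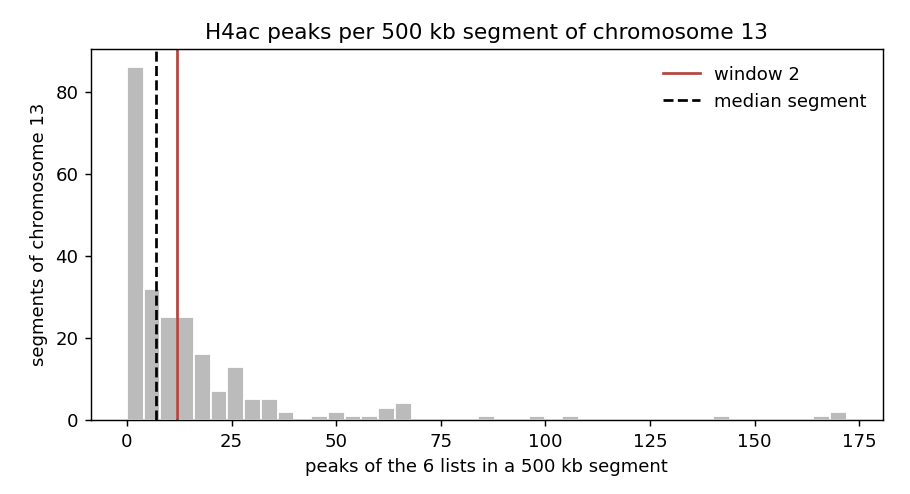
Number of 500 kb segments of chromosome 13 (vertical axis) by the number of peaks of the 6 lists they hold (horizontal axis, bins of 4 peaks). The solid line marks window 2 at 12 peaks and the dashed line the median segment at 7.

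The peaks of the windows were weak within their lists. The fold over background and the −log10 q are the authors' values for each peak and serve here to describe and rank peaks within a list. The percentile is the percentage of peaks in the same list with a −log10 q at or below that of the peak. Over the 16 peaks the percentile had a median of 16.5, with a range of 1.12 to 79.8. Only 1 of the 16 was above the median of its list, and 11 were in the lowest 25%. By library, the median percentile was 17.9, 10.8 and 27.2 in MLX-DN replicates 1, 2 and 3 and 8.08 in MLX-WT replicate 2. The other chromosome 13 peaks of these lists had median percentiles of 47.0, 48.7, 48.3 and 47.3. Their lowest 25% classes held 24.2% to 27.9% of them.

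Fold and width were low too. The median fold in the windows was 3.25, 3.37 and 3.91 in MLX-DN replicates 1, 2 and 3 and 3.14 in MLX-WT replicate 2, against 3.90, 4.02, 3.81 and 3.94 on the rest of the chromosome. MLX-DN replicate 3 was the 1 library of these 4 in which the windows were not lower in fold. The median width was 317, 277.5 and 259 bp in the MLX-DN libraries and 284.5 bp in MLX-WT replicate 2, against 389.5, 424.5, 407.5 and 384 bp. Of the 16 peaks, 10 were under 300 bp, against 24.2%, 20.7%, 22.2% and 24.7% of the other chromosome 13 peaks of these 4 lists. Among the members, 2 had the shortest listed width of 250 bp, and the widest was 477 bp. None exceeded 1 kb, which with 16 peaks is near the background, since 4.60%, 7.54%, 5.97% and 4.59% of the other peaks did. The number of ChIP reads at a summit, recovered from fold and p, was 16 to 32 with a median of 21. In the same 4 lists the medians on the rest of the chromosome were 30 to 32 reads. The background under the members was 1.00 to 2.69 times the genome-wide control level of the library, with library medians of 1.13 to 1.46, against 1.59 to 2.09 on the rest of the chromosome in the same 4 lists. Both the reads and the background were thus low in the windows, and their part in the ranks was not tested.

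**Figure D4:**
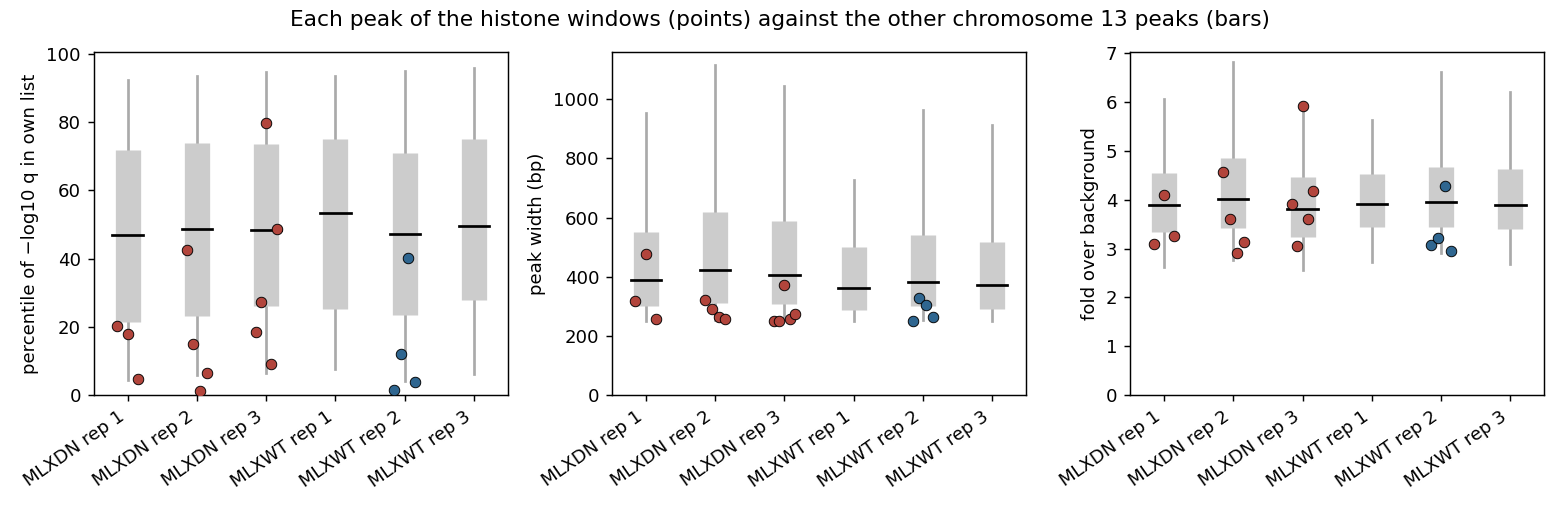
Percentile of −log10 q in the own list (left), peak width in bp (middle) and fold over background (right) for each peak of the histone windows (coloured points), by library. Grey bars span the middle 50% of the other chromosome 13 peaks, thin lines their 5th to 95th percentile and black lines their median; 15 of the 16 points in the left plot are below 50 and the remaining one is at 79.8.

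The 16 peaks merged into 12 regions, and none was in all 3 lists of a construct. No region was common to all 3 MLX-DN lists and absent from the MLX-WT lists, where 6.82% of the 1348 regions on the rest of chromosome 13 and 6.1% of all 31891 regions of the genome were. None showed the opposite pattern, found at 0.0742% and 0.166%. No region was in all 6 lists, against 8.68% and 9.74%. With 12 regions, each of these shares alone corresponds to about 1 region or fewer, so each of these zeros is near the background. The share of regions in all 3 lists of a construct, whatever the other construct lists, was not counted. A single library listed 9 of the 12 regions (75%), against 44.4% of the rest of chromosome 13 and 42.9% of the genome. MLX-DN lists alone held 8 regions, MLX-WT lists alone 3, all from replicate 2, and both constructs 1. On the rest of chromosome 13 these shares were 51.6%, 11.4% and 36.9%. Of the 3 regions in more than 1 library, 1 remained without MLX-DN replicate 3. The region of both constructs rested on MLX-WT replicate 2, without which the number was 0. With MLX-DN replicate 1 left out, region 12 was in the remaining MLX-DN lists and in none of MLX-WT, and with MLX-DN replicate 2 left out the same held for region 3. How often regions elsewhere show these patterns with a library left out was not counted.

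Region 6, chr13:23654702-23655093, was the most shared and the strongest. It is 392 bp wide, in window 2. MLX-DN replicate 2 listed it with a fold of 4.56 at percentile 42.5, on 22 ChIP reads. MLX-DN replicate 3 listed it with a fold of 5.91 at percentile 79.8, on 31 reads, the highest rank of all members. MLX-WT replicate 2 listed it with a fold of 4.28 at percentile 40.1, on 23 reads. The 3 summits lay at 23654930, 23654927 and 23654880, within 50 bp of each other. MLX-DN replicate 1 and MLX-WT replicates 1 and 3 had no peak there. Presence thus followed neither construct. The 3 libraries that listed it were also the deepest 3 of the 6, at 3.90, 3.63 and 3.84 reads per 250 bp. With equal depth 1 region of both constructs remained. The part of depth in the libraries without a peak there was not tested.

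Regions 3 and 12 each appeared in 2 MLX-DN lists and in none of the MLX-WT lists. On the rest of chromosome 13, 51.6% of regions were in MLX-DN lists only. The share in exactly 2 of these lists was not counted, so this pattern may be ordinary. Region 3, chr13:22037013-22037373, is the only region of window 1 with more than 1 library. MLX-DN replicate 1 listed it with a fold of 3.10 at percentile 20.4 and MLX-DN replicate 3 with 3.05 at 27.2. Its read numbers, 27 and 32, were high for the windows, and so was its background, at 2.39 and 2.69 times the control level. Region 12, chr13:23838011-23838284, was listed by MLX-DN replicate 2 with a fold of 3.13 at percentile 6.61 and by MLX-DN replicate 3 with 4.18 at 48.6. Folds and ranks of this region thus differed more between the replicates than those of region 3.

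The other 9 regions rested on 1 library each. In MLX-DN replicate 1 these were chr13:23642849-23643325, at 477 bp the widest member, with a fold of 4.10 at percentile 17.9, and chr13:23712493-23712751, with 3.25 at 4.60. In MLX-DN replicate 2 they were chr13:23829844-23830135, with a fold of 3.61 at percentile 15.04, and chr13:23832244-23832506, with 2.91 at 1.12, the lowest rank of all. In MLX-DN replicate 3 they were chr13:22006030-22006279, with a fold of 3.91 at percentile 18.5, and chr13:23676387-23676645, with 3.60 at 9.001. MLX-WT replicate 2 alone listed chr13:21825512-21825761, with a fold of 3.07 at percentile 1.61, chr13:23647203-23647531, with 3.21 at 12.2, and chr13:23676794-23677057, with 2.94 at 3.97. The last of these starts 148 bp beyond the MLX-DN replicate 3 peak from 23676387, and joining peaks within 500 bp makes them 1 region of both constructs. All of these single-library peaks ranked in the lowest 20% of their lists. The share of single-library peaks elsewhere that rank so low was not counted, so this is not shown to be particular to the windows.

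Spacing within the windows was uneven. Neighbouring summits of 1 list were 2350 to 175005 bp apart, with only 1 to 3 such distances per library. The medians were 69510, 5763 and 30953 bp in MLX-DN replicates 1, 2 and 3 and 14821 bp in MLX-WT replicate 2, against 27949, 12941, 21204 and 40382.5 bp on the rest of the chromosome. They were longer in 2 of the 4 libraries and shorter in the other 2. These measures are not alike, since a distance inside a window cannot exceed its length. Those on the rest include every longer gap. In MLX-DN replicate 2, 3 peaks followed each other between 23829844 and 23838277, and in MLX-WT replicate 2, 2 summits of window 2 were 7567 bp apart. Most of each window was empty in every list. The longest stretch without a peak was 180 kb in window 1, from 21825762 to 22006029, and 212 kb in window 2, from 23838285 to the end of the window. This second stretch was cut by the window edge and continued without a listed peak to the region starting at 24372181. All peaks together covered 0.191% of window 1 and 0.562% of window 2.

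Some regions listed by more libraries lay below the windows, closest to window 2. Between the last region of window 1 and chr13:23460583, a stretch of 1.42 Mb held no peak in any list. The final 89.4 kb before window 2 then held 4 regions with 14 peaks. Of these, chr13:23537172-23537852 ended 12.1 kb short of window 2 and was listed by 5 libraries, all but MLX-WT replicate 2, with folds of 2.22 to 6.65. The regions chr13:23460583-23461092 and chr13:23515303-23515686 were each listed by all 3 MLX-DN libraries and MLX-WT replicate 2. The nearest one, chr13:23545509-23545758, ended 4.24 kb before the window and was listed by MLX-WT replicate 3 alone, with a fold of 5.17 at percentile 66.4. Below window 1, chr13:21622587-21623341 ended 127 kb from its edge and was listed by all 6 libraries, with folds of 2.84 to 8.60. In the 500 kb below window 1 and the 500 kb above window 2 the 6 lists held 24 peaks each, or 8 per Mb per library. The density was 1.48 in window 1, 4 in window 2 and 1.73 between the windows, where the lists held 14 peaks. Above window 2 the nearest region, chr13:24372181-24372500, began 322 kb beyond the window. In the gene order of GRCm38.p6 the protein-coding gene before H4c8 is Btn2a2, of the butyrophilin family. Its place relative to the edge of window 2 was not determined, and no peak was assigned to it.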

How the data were processed

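H4ac and input chromatin of C2C12 cells were sequenced (12 libraries). Per the submitters' processing notes the tools were MACS2 2.0.9, BWA 0.5.9-r26, SAMtools, CASAVA, Picard 1.65 and R 2.14.0, with mm9 as the build; their roles are not given. Each of the 6 deposited lists holds the peaks of 1 H4ac library and no list of the 6 input libraries was used. Which library served as control for each list is not stated. The authors deposited for each peak its −log10 p and −log10 q, a score (10 times the −log10 q, cut to a whole number) and the ratio of ChIP to background at the summit, called fold. Groups and replicate numbers came from the sample titles. Total read numbers are unknown; ChIP reads and background were recovered from fold and p, with whole reads matching the −log10 p to within 0.001 in 100% of peaks. This step was tested on simulated data. Overlapping or touching peaks of the 6 lists were merged into regions. Coordinates count from 1. The rest of chromosome 13 runs from its first to its last listed peak, less the windows.

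Peak number, covered length and the ratio to the rest of the chromosome were compared between constructs with exact permutation tests on the log2 scale (20 assignments). Windows and rest were compared with an exact sign-flip test over 6 libraries (64 patterns). Adjusted p-values are Benjamini-Hochberg values. The design planned log2 values without an added number; libraries without a window peak made 0.5 peaks and 125 bp necessary. Medians and region counts were not tested. Regions were to be named as the 10 highest ranked of all 6 lists, those constant in 1 group, the 3 widest and the longest empty stretches; the first 2 classes were empty, and the other regions were named after their values were seen. Members, windows and gene lists were chosen with earlier results of these data known. The alternatives tried were lists of equal length (the 5385 strongest peaks), peaks with −log10 q from 5 upward, equal depth, other window edges, summits, each window, each library left out, the replicate block, other chromosomes as comparison and, added after seeing the data, other added numbers. In the check for pairing over regions, same-numbered libraries of the 2 constructs correlated at −0.0593, −0.0596 and 0.000683. Differently numbered ones correlated at −0.0217 to 0.0737, so the numbers were not taken as pairs. These values served only this check and do not measure how far the lists share regions. Python 3.11.15, numpy 2.4.6, pandas 2.3.3 and scipy 1.17.1 were used.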

Additional observations from a re-analysis of the deposited data

How the results depend on the processing

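The difference between constructs in window peaks relative to the rest of chromosome 13 reversed, from 0.99 to −0.29 at −log10 q of at least 5 and to −0.32 in window 1 alone. The lower density in the windows (−1.03) no longer passed 0.05 with wider windows (−0.42), narrower windows (−0.69), window 2 alone (−0.35) or 1 added to counts (−0.59). Without 1 library it was −1.22 to −0.72, and covered length −1.98 to −1.46, where the exact permutation test of 5 libraries cannot go below p = 0.0625. With the replicate block the differences between constructs stayed at 2.09, 2.28 and 0.99 (exact permutation p = 0.50 for each, where 3 pairs cannot go below 0.25). Neither this test nor the one without the block could pass 0.05, so no call could change. Over all alternatives the 3 differences ranged from 0.53 to 3.15, 0.66 to 3.40 and −0.32 to 1.73.

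Fewer peaks enter at −log10 q of at least 5. The means of the library medians in MLX-DN, with replicates 2 and 3 only, were then 323 bp, fold 4.81 and percentile 53.4. The spacing of 183215 bp was 1 distance in MLX-DN replicate 3. In MLX-WT, fold 4.28 and percentile 40.1 were those of 1 peak of replicate 2. The percentile ranks −log10 q, so this minimum raises it by construction. Equal list length left 1 MLX-DN peak, of 372 bp, fold 5.91 and percentile 79.8. Wider windows gave folds of 3.93 and 3.68 and percentiles of 33.2 and 31.5 in MLX-DN and MLX-WT. Window 1 alone gave a width of 250 bp in MLX-WT.

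The 12 regions became 2 with the −log10 q minimum, 1 with lists of equal length and 3 in window 1; those of a single library (9) became 1, 1 and 2; those of MLX-DN lists only (8) became 1, 1 and 2; and those of MLX-WT lists only (3) became 0, 0 and 1. Regions of 2 or more libraries (3) became 1, 0, 1 and, with wider windows, 6. Regions of both constructs (1) became 0 at equal length, 0 in window 1, 4 with wider windows and 2 with peaks within 500 bp joined. With 1 library left out, regions of 2 or more libraries ranged from 1 to 3, of MLX-WT lists only from 0 to 3, of both constructs from 0 to 1, and of every MLX-DN and no MLX-WT list from 0 to 1. No listed peak of any library rested on fewer than 13 ChIP reads, and acetylation below what the caller listed was not analysed here.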
